A study of Homo sapiens with 6 samples.

Results

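The unfolded protein response and the integrated stress response were followed through 34 genes, chosen by symbol from known biology: endoplasmic reticulum chaperones, stress sensors, and the transcription factor ATF4 with its targets. All 34 were found among the 24789 rows of the deposited table that hold values, each as 1 row. All libraries came from LX-2, a single established human line derived from hepatic stellate cells, which make the scar matrix of the liver. In the group labelled AEBP1 knockdown the cells received an siRNA against AEBP1, whose product includes a secreted matrix protein. The other group received a scrambled siRNA and is labelled wild type. Both siRNAs were given at 50 nM in a lipid reagent, so every library comes from transfected cells, and RNA was taken 48 hours later. There were 3 libraries a group, labelled by treatment and called AEBP1 siRNA 1 to 3 and scrambled 1 to 3 below. No source used here says that they came from separate cultures, so the p-values cover only the spread among these libraries, and it may be technical.

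Proteins that enter the endoplasmic reticulum are folded by chaperones such as BiP, encoded by HSPA5, and when folding falls behind, sensors in the membrane start the unfolded protein response. IRE1 (ERN1) cuts XBP1 mRNA so that it encodes an active transcription factor, ATF6 is cleaved to release another, and PERK (EIF2AK3) phosphorylates the initiation factor eIF2alpha. That phosphorylation, which other kinases also carry out when amino acids, heme or viral RNA call for it, lowers general translation while ATF4 is translated more, and is called the integrated stress response. Stellate cells secrete much collagen and depend on this folding machinery. The values here are gene-level RNA: spliced XBP1 mRNA, cleaved ATF6, phosphorylated eIF2alpha and ATF4 protein were not measured.

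Promoters of some members are shown to place known response elements beside the RNA values. They are the 250 bases before a RefSeq start site on GRCh38.p14, read 5′ to 3′ on the gene's strand, and capitals mark matches to 4 motifs searched on both strands of these 250 bases. The endoplasmic reticulum stress element (ERSE) was searched as CCAAT and CCACG with 9 free bases between them, ERSE-II as ATTGG and CCACG with 1 free base between them, the unfolded protein response element (UPRE) as TGACGTGG, and the C/EBP-ATF element (CARE), bound by ATF4, as TGATGCAA. HSPA5 lies at chr9:125241344-125241593 (minus strand), HSP90B1 at chr12:103930160-103930409 (plus strand), XBP1 at chr22:28800570-28800819 (minus strand), HERPUD1 at chr16:56931892-56932141 (plus strand), CHAC1 at chr15:40953221-40953470 (plus strand), PSAT1 at chr9:78296875-78297124 (plus strand) and PHGDH at chr1:119711684-119711933 (plus strand). The deposited values were made on another build, hg19, and these coordinates were not joined to them.
HSPA5: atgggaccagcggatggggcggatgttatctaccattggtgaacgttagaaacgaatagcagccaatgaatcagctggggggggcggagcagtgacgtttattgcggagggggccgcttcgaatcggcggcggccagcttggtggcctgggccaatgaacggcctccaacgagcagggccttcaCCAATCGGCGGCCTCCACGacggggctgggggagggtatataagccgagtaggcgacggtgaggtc
HSP90B1: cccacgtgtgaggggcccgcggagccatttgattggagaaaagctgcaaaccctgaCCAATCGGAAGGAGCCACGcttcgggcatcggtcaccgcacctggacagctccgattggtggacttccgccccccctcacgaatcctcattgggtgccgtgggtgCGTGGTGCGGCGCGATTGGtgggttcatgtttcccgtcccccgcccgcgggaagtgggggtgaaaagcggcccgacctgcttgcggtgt
XBP1: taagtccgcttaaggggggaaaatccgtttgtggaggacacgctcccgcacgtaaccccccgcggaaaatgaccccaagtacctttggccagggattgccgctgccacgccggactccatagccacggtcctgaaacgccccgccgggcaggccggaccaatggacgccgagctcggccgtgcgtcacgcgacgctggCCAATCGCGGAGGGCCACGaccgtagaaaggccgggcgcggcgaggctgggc
HERPUD1: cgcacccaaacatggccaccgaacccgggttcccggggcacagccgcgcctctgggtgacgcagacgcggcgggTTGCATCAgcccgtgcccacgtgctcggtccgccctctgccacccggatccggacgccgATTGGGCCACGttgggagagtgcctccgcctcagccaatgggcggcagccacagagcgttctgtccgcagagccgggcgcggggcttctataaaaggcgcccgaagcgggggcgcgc
CHAC1: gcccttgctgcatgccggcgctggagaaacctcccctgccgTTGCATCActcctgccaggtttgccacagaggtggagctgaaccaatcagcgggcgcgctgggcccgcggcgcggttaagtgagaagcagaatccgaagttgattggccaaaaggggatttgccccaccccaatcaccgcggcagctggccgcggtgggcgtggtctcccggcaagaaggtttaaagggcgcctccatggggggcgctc
PSAT1: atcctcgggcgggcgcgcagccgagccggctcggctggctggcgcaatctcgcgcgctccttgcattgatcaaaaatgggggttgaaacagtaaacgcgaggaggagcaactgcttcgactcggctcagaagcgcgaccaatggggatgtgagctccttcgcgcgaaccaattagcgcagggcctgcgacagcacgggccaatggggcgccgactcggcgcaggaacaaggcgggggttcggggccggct
PHGDH: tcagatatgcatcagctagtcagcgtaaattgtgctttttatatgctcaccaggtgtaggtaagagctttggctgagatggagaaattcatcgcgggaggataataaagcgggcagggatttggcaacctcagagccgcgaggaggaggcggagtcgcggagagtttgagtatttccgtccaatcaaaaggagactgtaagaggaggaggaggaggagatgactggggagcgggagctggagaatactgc

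In HSPA5, HSP90B1 and XBP1 the capitals mark ERSE, with 2 matches in HSP90B1, the second of them on the reverse strand. In HERPUD1 they mark a reverse-strand CARE and then ERSE-II, and in CHAC1 a reverse-strand CARE. Promoters were held for 32 of the 34 members, some with several start sites. ERSE was found in 7 of the 32 (CALR, CANX, CRELD2, HSP90B1, HSPA5, PDIA6 and XBP1), or 21.9%, against 0.0916% of all 27305 genes with a window. Counted by window, it was in 8 of 44 or 18.2% of the members' windows, against 0.074% of all 35116. ERSE-II was found in HERPUD1, HYOU1 and SDF2L1, or 9.38%, against 0.0659% of all genes. CARE was found in CHAC1 and HERPUD1 and in 0.967% of all genes. UPRE was found in HYOU1, where its letters overlap 1 of the 2 ERSE-II matches, and in 0.78% of all genes. The members were chosen from known biology of this response, so these shares are a description and no test. The windows shown for PSAT1 and PHGDH held none of these letters, which says nothing of elements outside them or spelled otherwise.

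Total counts were 34433510 to 41600600 in the AEBP1 siRNA libraries and 41330380 to 49432960 in the scrambled ones, and the members took 0.832% to 0.946% of them. The targeted gene did not follow the labels: AEBP1 had 29.7, 27.7 and 48.3 CPM in AEBP1 siRNA 1, 2 and 3, against 53.6, 48.7 and 25.1 CPM in scrambled 1, 2 and 3 (CPM, counts scaled to library size by trimmed mean of M values). Its log2 fold change was -0.27 (95% interval -0.97 to 0.43). AEBP1 siRNA 3 was thus close to scrambled 2, scrambled 3 was the lowest of all, and each fold change below follows the labels as given. Whether AEBP1 siRNA 3 and scrambled 3 were exchanged cannot be settled from the files, and if they were, the labelled fold changes would not compare the treatments. AEBP1 siRNA 1 stood apart on the first principal component of all genes, at 65.9 where the others lay between -17.3 and -5.74. On the second, with 21.4% of the variance, AEBP1 siRNA 2 and scrambled 3 were at 34.1 and 26.0, and AEBP1 siRNA 1 at 1.99. The libraries with the most AEBP1, namely AEBP1 siRNA 3, scrambled 1 and scrambled 2, were at -17.8, -30.0 and -14.3. That component of all genes thus also cut across the labels, and its cause was not tested. Of 14 stellate cell markers 10 passed the filter on low counts. COL1A1, VIM and SPARC were at 1512, 1167 and 594 CPM on average. COL1A2 and ACTA2, which mark activated cells, were only at 4.20 and 4.02 CPM, PDGFRA, HGF and GFAP were under 1 CPM, and LRAT, the retinoid-storing enzyme of quiescent cells, had 0 counts and DES had 12 over the 6 libraries. Of 27 markers of hepatocytes, cholangiocytes, leukocytes and endothelium, 8 passed that filter. Summed over those that passed in each list, the CPM was 5.45 to 7.48 for hepatocyte markers in the AEBP1 siRNA libraries and 4.70 to 9.23 in the scrambled ones, 28.6 to 34.4 and 27.5 to 36.8 for cholangiocyte markers (KRT7 and SOX9), 0.479 to 0.872 and 0.251 to 0.772 for endothelial markers, and 22.0 to 25.8 and 18.8 to 23.8 for leukocyte and macrophage markers. The hepatocyte sum was SERPINA1 alone, and the leukocyte and macrophage sum was mostly CD68, at 20.6 CPM on average. Markers that did not pass were near the floor: over the 6 libraries PTPRC had 6 counts, ALB 4, KRT19 3 and EPCAM 9.

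Levels of the members spanned a wide range, and several outputs of the integrated stress response were among the most abundant. In FPKM, which is per length and so can be compared between genes, the mean of the 6 libraries ran from 8.26 for EIF2AK3 to 395 for PPP1R15A, which encodes the phosphatase subunit GADD34 that reverses eIF2alpha phosphorylation. ASNS, the asparagine synthetase, ATF4 and PSAT1, a serine synthesis enzyme, followed at 311, 253 and 233 FPKM, ahead of HSPA5 at 216. The sensors stood at the low end, with ERN1 at 11.1 and ATF6 at 8.39 FPKM. The median over the members was 39.1 FPKM and that over all 16250 genes tested 6.92, and 13 members were above the level of 75.1 FPKM that 95% of those genes do not reach. FPKM was deposited by the authors, whose transcript models set the lengths.

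**Figure D1:**
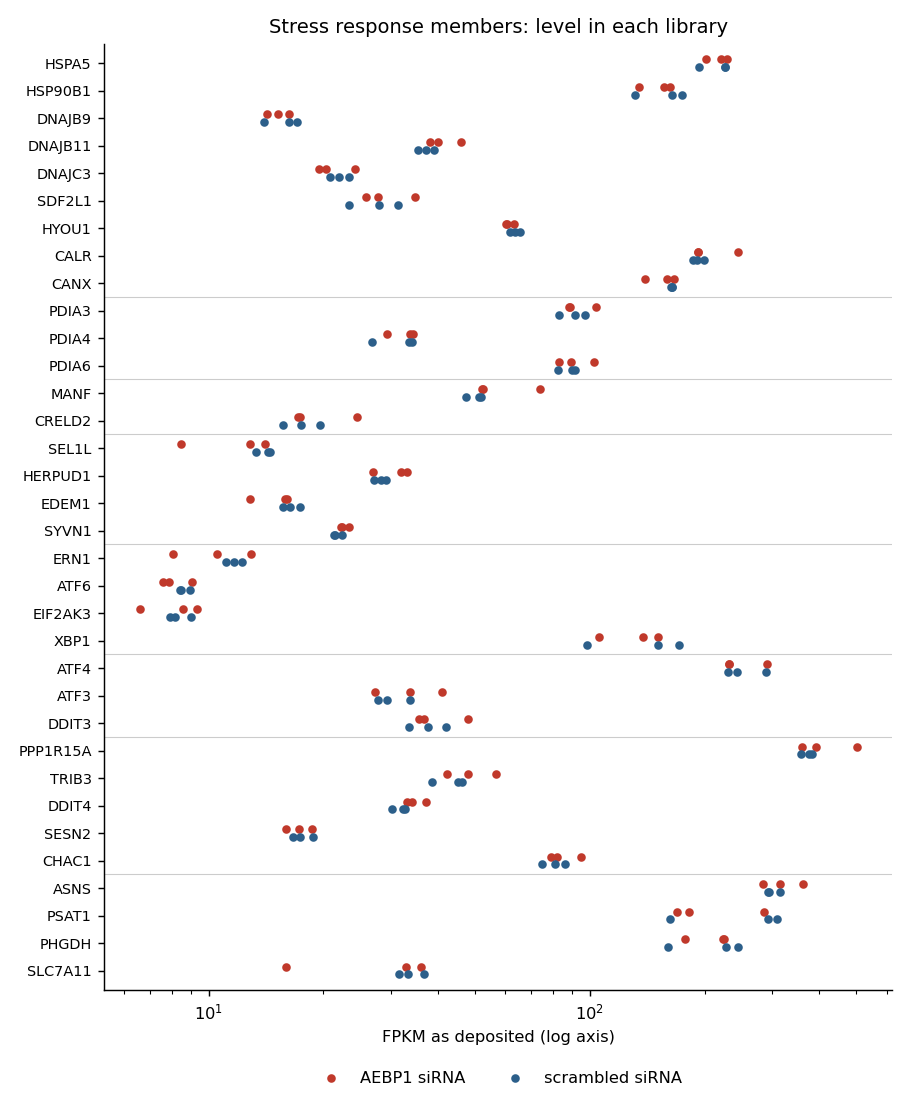
FPKM of each of the 34 members in each library, on a log axis, with 1 point per library: red for AEBP1 siRNA (upper of each pair of rows) and blue for scrambled siRNA. Grey lines separate roles. PPP1R15A, ASNS and ATF4 lie at the right and the sensors ERN1, ATF6 and EIF2AK3 at the left, and on this FPKM scale points of both groups overlap for all members but MANF and DDIT4. The share of all genes without overlap on this scale was not counted.

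No member passed the test of the labelled groups over all genes (edgeR quasi-likelihood test, Benjamini-Hochberg adjustment over 16250 genes). Of 34 members, all of which passed the filter on low counts, 0 had an adjusted p under 0.05 and 0 an unadjusted p under 0.05, and DESeq2 called 0 as well. Over all genes the test called 0.00615%, DESeq2 called 0.0369%, and 1.33% had an unadjusted p under 0.05, so few calls were made anywhere. Estimates were above 0 for 19 members, or 55.9%, against 49.4% of all genes, and below 0 for 15. The median log2 fold change was 0.022 over the members, beside -0.0023 over all genes. The members' estimates ran from -0.28 for PSAT1 to 0.21 for MANF. The 95% interval of the difference lay within 1.5-fold in either direction for 30 members and within 2-fold for all 34. The 4 with wider intervals were PSAT1, SLC7A11, SEL1L and XBP1. In bulk RNA, fewer cells that express a gene and less of its RNA per cell cannot be told apart.

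**Figure D2:**
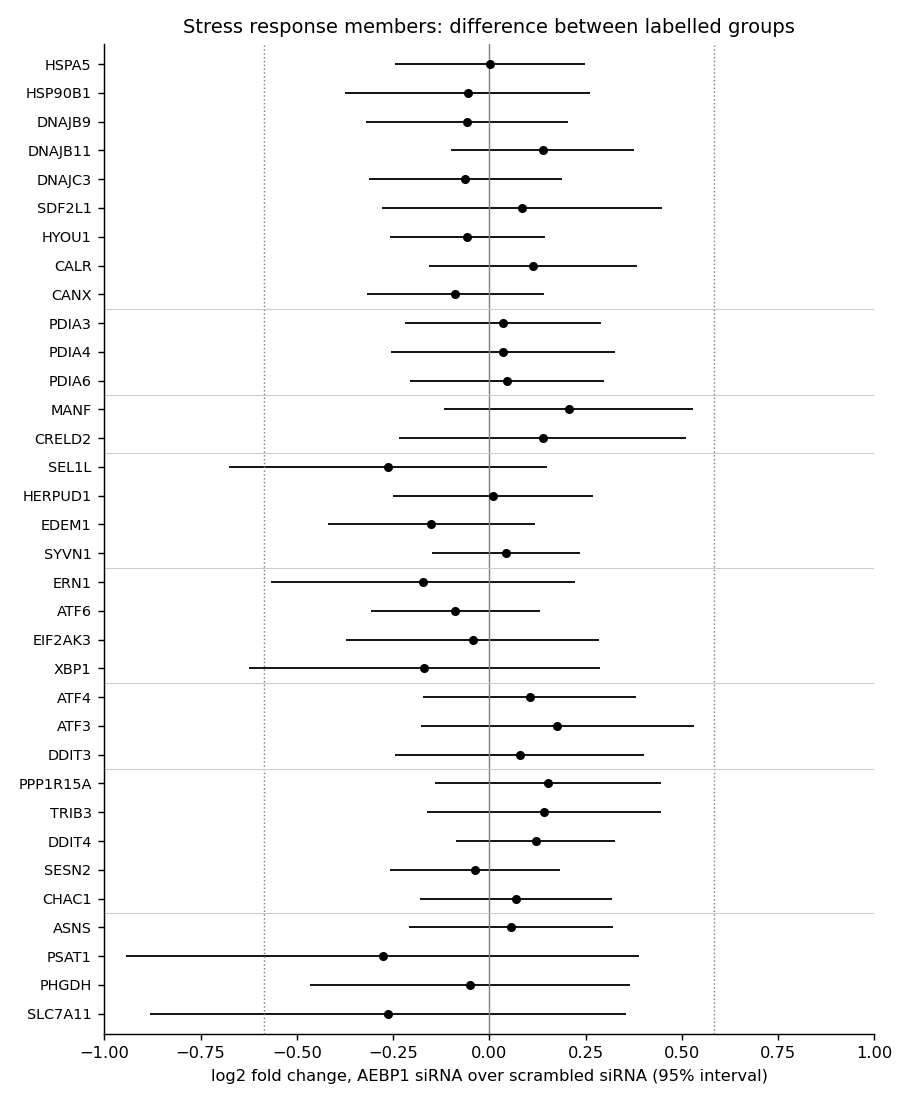
Log2 fold change of AEBP1 siRNA over scrambled siRNA for each member (points) with its 95% interval from edgeR (bars), 3 libraries per group; dotted lines mark 1.5-fold. All 34 intervals include 0, and those of PSAT1, SLC7A11, SEL1L and XBP1 reach beyond 1.5-fold on the lower side.

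Among the chaperones of the lumen, HSPA5 had 994, 874 and 984 CPM in AEBP1 siRNA 1, 2 and 3, against 1004, 996 and 849 CPM in scrambled 1, 2 and 3. Scrambled 3 and AEBP1 siRNA 2 were the lowest, the groups overlapped, and the group means were almost equal at 951 ± 66.4 CPM under AEBP1 siRNA and 949.6 ± 87.5 CPM under scrambled siRNA (SD, n = 3 each). Its log2 fold change was 0.0019 (95% interval -0.24 to 0.25). HSP90B1, the chaperone GRP94, had 496, 425 and 529 CPM in AEBP1 siRNA 1, 2 and 3, against 563, 524 and 419 CPM in scrambled 1, 2 and 3. The same pair of libraries was lowest, with a log2 fold change of -0.056 (95% interval -0.37 to 0.26). DNAJB11, a cochaperone that delivers clients to BiP, had 86.4, 71.3 and 77.0 CPM in AEBP1 siRNA 1, 2 and 3, against 75.0, 70.7 and 67.6 CPM in scrambled 1, 2 and 3. Its AEBP1 siRNA 1 value was the highest, and its log2 fold change was 0.14 (95% interval -0.10 to 0.38), or 0.061 without that library. CALR and CANX, the lectin chaperones of the calnexin cycle, had log2 fold changes of 0.11 and -0.088, HYOU1, the nucleotide exchange factor GRP170, -0.057, and the cochaperones DNAJB9, DNAJC3 and SDF2L1 -0.059, -0.062 and 0.085. HYOU1 varied little, its highest library being 1.09 times its lowest, and CANX was at 656 CPM in AEBP1 siRNA 1 and between 768 and 789.8 CPM elsewhere.

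The disulfide isomerases, which form and rearrange the bonds between cysteines, had estimates above 0 for 3 of 3 members. PDIA3, which works with the lectin chaperones, had 430.0, 363 and 376 CPM in AEBP1 siRNA 1, 2 and 3, against 409, 384 and 347 CPM in scrambled 1, 2 and 3. AEBP1 siRNA 1 was highest and scrambled 3 lowest, and the log2 fold change was 0.036 (95% interval -0.22 to 0.29). PDIA4 and PDIA6 had log2 fold changes of 0.035 and 0.047. Without AEBP1 siRNA 1, PDIA3 was at -0.041 and PDIA6 at -0.036, and only PDIA4 stayed above 0, at 0.012. MANF, a small protein secreted under calcium or folding stress, had 92.1, 65.6 and 67.9 CPM in AEBP1 siRNA 1, 2 and 3, against 67.8, 61.4 and 66.3 CPM in scrambled 1, 2 and 3. AEBP1 siRNA 1 was far above the other 5, among which the groups overlapped, and the log2 fold change was 0.21 (95% interval -0.12 to 0.53), or 0.034 without that library. In deposited FPKM, MANF had 73.8, 52.5 and 52.2 FPKM in AEBP1 siRNA 1, 2 and 3, against 51.9, 47.4 and 51.1 FPKM in scrambled 1, 2 and 3, where the groups did not overlap. The share of all genes without overlap was counted in CPM only, at 5.93%, and not on the FPKM scale. CRELD2, another stress-induced protein of the lumen, was at 37.4 CPM in AEBP1 siRNA 1 and at 24.6 to 30.8 CPM in the others.

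Genes that return misfolded proteins to the cytosol for degradation had estimates above 0 for 2 of 4. SEL1L, the adaptor of the HRD1 ubiquitin ligase, had 74.3, 112 and 126 CPM in AEBP1 siRNA 1, 2 and 3, against 118, 127 and 129 CPM in scrambled 1, 2 and 3. AEBP1 siRNA 1 was far below the rest and the groups overlapped, with a log2 fold change of -0.26 (95% interval -0.68 to 0.15), an unadjusted p of 0.179 by edgeR, the smallest of all members, and an estimate of -0.071 without AEBP1 siRNA 1. HERPUD1, a membrane protein that binds the same ligase, had 86.3, 68.1 and 82.4 CPM in AEBP1 siRNA 1, 2 and 3, against 79.9, 82.0 and 73.3 CPM in scrambled 1, 2 and 3. Its AEBP1 siRNA libraries held both its highest and its lowest value, and the log2 fold change was 0.0096 (95% interval -0.25 to 0.27). SYVN1, the HRD1 ligase itself, was the steadiest member, at 76.4 ± 1.93 CPM under AEBP1 siRNA and 74.2 ± 1.78 CPM under scrambled siRNA (SD, n = 3 each). EDEM1, which promotes the degradation of misfolded glycoproteins, had a log2 fold change of -0.15 (95% interval -0.42 to 0.12) and its lowest value in AEBP1 siRNA 1.

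All 4 genes of the sensors and XBP1 had estimates below 0, with none called. ERN1 had 61.1, 86.2 and 102 CPM in AEBP1 siRNA 1, 2 and 3, against 90.8, 98.7 and 91.3 CPM in scrambled 1, 2 and 3, ranging more widely among the AEBP1 siRNA libraries than among the scrambled ones. Its log2 fold change was -0.17 (95% interval -0.57 to 0.22), and 0.0067 without AEBP1 siRNA 1. EIF2AK3 had 34.1, 44.1 and 49.3 CPM in AEBP1 siRNA 1, 2 and 3, against 47.4, 42.8 and 41.4 CPM in scrambled 1, 2 and 3. Its AEBP1 siRNA libraries again held both extremes, with a log2 fold change of -0.043 (95% interval -0.37 to 0.29) that turned to 0.092 without AEBP1 siRNA 1. ATF6 had 65.7, 75.2 and 64.8 CPM in AEBP1 siRNA 1, 2 and 3, against 71.7, 75.4 and 71.5 CPM in scrambled 1, 2 and 3, a log2 fold change of -0.088 (95% interval -0.31 to 0.13). XBP1 had 241, 201 and 279 CPM in AEBP1 siRNA 1, 2 and 3, against 331, 283 and 197 CPM in scrambled 1, 2 and 3. The order of libraries in XBP1 cut across the labels, with scrambled 1 highest and scrambled 3 lowest, and the log2 fold change was -0.17 (95% interval -0.62 to 0.29). It was -0.61 when only AEBP1 siRNA 2 was set against scrambled 1 and 2.

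The stress transcription factors had estimates above 0 for 3 of 3. ATF4 had 605, 466 and 488 CPM in AEBP1 siRNA 1, 2 and 3, against 508, 474 and 467 CPM in scrambled 1, 2 and 3. AEBP1 siRNA 1 was the highest and the other 5 lay close together, with a log2 fold change of 0.11 (95% interval -0.17 to 0.38), or -0.018 without that library. In deposited FPKM, ATF4 had 292, 231 and 232 FPKM in AEBP1 siRNA 1, 2 and 3, against 243, 290 and 231 FPKM in scrambled 1, 2 and 3. Scrambled 2 was thus close to AEBP1 siRNA 1 in FPKM but not in CPM. The FPKM means were 252 ± 34.9 in the AEBP1 siRNA libraries and 254 ± 31.5 in the scrambled ones. With all libraries kept, the estimate on the log2(FPKM + 1) scale was -0.018. ATF3, a factor induced downstream of ATF4, had 90.3, 73.0 and 61.5 CPM in AEBP1 siRNA 1, 2 and 3, against 62.5, 61.0 and 75.4 CPM in scrambled 1, 2 and 3. Its scrambled 3 value was above those of AEBP1 siRNA 2 and 3, and the log2 fold change was 0.18 (95% interval -0.18 to 0.53), or 0.021 without AEBP1 siRNA 1. DDIT3, the proapoptotic factor CHOP, had a log2 fold change of 0.079 (95% interval -0.25 to 0.40). The DDIT3 gene overlaps MARS1, another gene of the table, so reads may be shared between them.

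Members grouped under feedback and growth control had estimates above 0 for 4 of 5. PPP1R15A had 1320.3, 1028 and 973 CPM in AEBP1 siRNA 1, 2 and 3, against 1010.2, 956 and 1019.7 CPM in scrambled 1, 2 and 3. AEBP1 siRNA 1 stood well above the other 5. Without it, the log2 fold change of 0.15 (95% interval -0.14 to 0.45) was 0.0071. TRIB3, a pseudokinase that binds AKT and ATF4, was also highest in AEBP1 siRNA 1 and had a log2 fold change of 0.14 (95% interval -0.16 to 0.45), or 0.0094 without that library. DDIT4, an inhibitor of mTORC1, was the only member whose groups did not overlap in CPM, 2.94% of the members, against 5.93% of all genes. It had 72.3, 66.0 and 66.1 CPM in AEBP1 siRNA 1, 2 and 3, against 64.1, 59.7 and 64.3 CPM in scrambled 1, 2 and 3. Each AEBP1 siRNA value was above each scrambled one by a small margin, with means of 68.2 ± 3.62 CPM under AEBP1 siRNA and 62.7 ± 2.59 CPM under scrambled siRNA (SD, n = 3 each). The log2 fold change was 0.12 (95% interval -0.087 to 0.33), with an edgeR adjusted p of 0.991, and 0.075 without AEBP1 siRNA 1. SESN2, which reports leucine shortage to mTORC1, and CHAC1, which degrades glutathione, had log2 fold changes of -0.038 and 0.070.

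The genes of amino acid supply held the 2 widest ranges between libraries, those of SLC7A11 and PSAT1, whose highest library was 2.32 and 1.96 times the lowest. That ratio passed 1.5 in 7 members, or 20.6%, against 45.8% of all genes tested. Its median was 1.30 over the members and 1.31 over the 7660 genes whose mean CPM lies in the members' range. ASNS had 788, 652 and 617 CPM in AEBP1 siRNA 1, 2 and 3, against 693, 642 and 643 CPM in scrambled 1, 2 and 3. The groups overlapped, with a log2 fold change of 0.057 (95% interval -0.21 to 0.32). PSAT1, the aminotransferase of serine synthesis, had 435, 401 and 708 CPM in AEBP1 siRNA 1, 2 and 3, against 764, 719 and 389 CPM in scrambled 1, 2 and 3. AEBP1 siRNA 3 and scrambled 1 and 2 were far above AEBP1 siRNA 1 and 2 and scrambled 3, so each labelled group held libraries of both kinds. Group means were 515 ± 168 CPM under AEBP1 siRNA and 624 ± 205 CPM under scrambled siRNA (SD, n = 3 each), and the log2 fold change was -0.28 (95% interval -0.94 to 0.39). Leaving out 1 library at a time moved it between -0.58 without AEBP1 siRNA 3 and -0.11 without scrambled 1. PHGDH, the first enzyme of the same pathway, had 465, 367 and 485 CPM in AEBP1 siRNA 1, 2 and 3, against 514, 509 and 339 CPM in scrambled 1, 2 and 3. The same 3 libraries were highest, with a smaller distance to AEBP1 siRNA 1, and the log2 fold change was -0.049 (95% interval -0.46 to 0.37). SLC7A11, the cystine importer, had 172, 353 and 397 CPM in AEBP1 siRNA 1, 2 and 3, against 345, 398 and 362 CPM in scrambled 1, 2 and 3. It was low in AEBP1 siRNA 1 and the remaining libraries overlapped, so that its log2 fold change of -0.26 (95% interval -0.88 to 0.36) became 0.025 without that library. PHGDH and HSP90B1 are given library by library because of the order seen in their values.

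**Figure D3:**
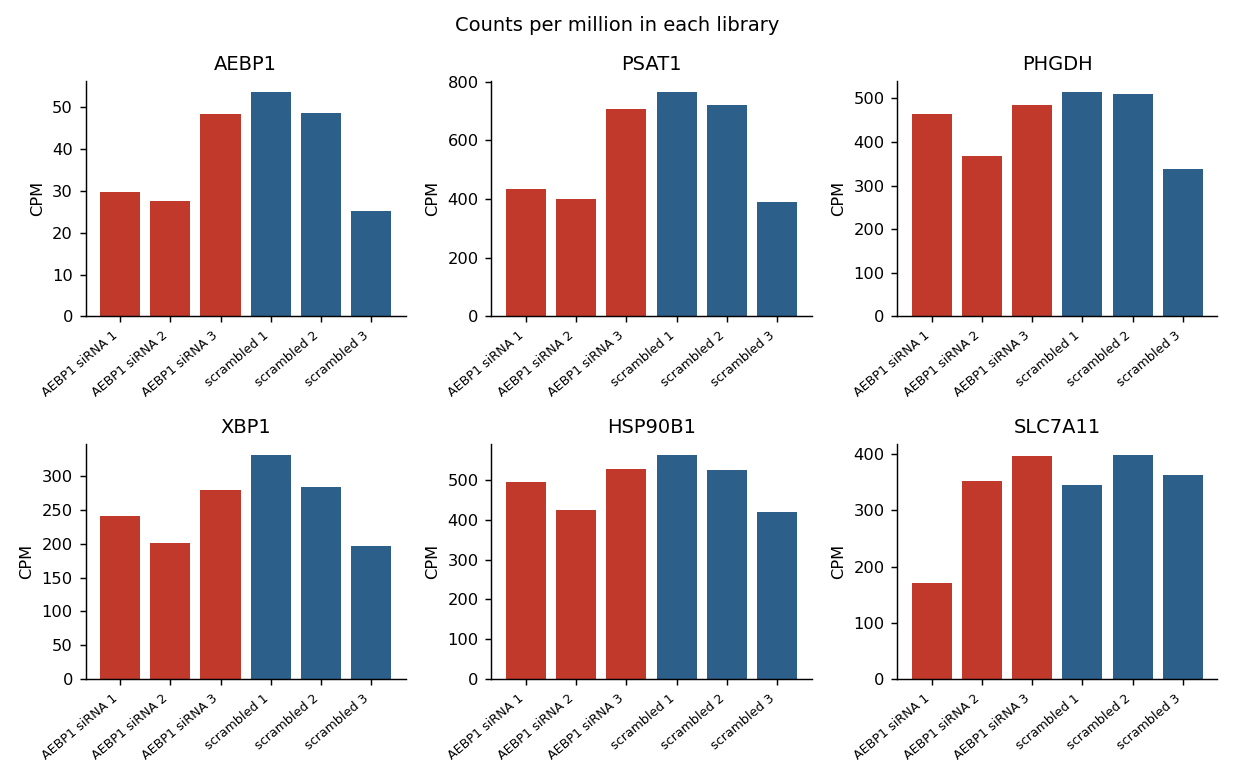
CPM (bars, from 0) in each library for the targeted gene AEBP1 and for PSAT1, PHGDH, XBP1, HSP90B1 and SLC7A11; red is AEBP1 siRNA and blue scrambled siRNA. AEBP1 siRNA 3 stands with scrambled 1 and 2 in AEBP1 and PSAT1, scrambled 3 is the lowest in AEBP1, PSAT1, PHGDH, XBP1 and HSP90B1, and SLC7A11 is low in AEBP1 siRNA 1. PHGDH and HSP90B1 were drawn because of the order seen in their values. Scrambled 3 was the lowest library in 14 of 34 members, or 41.2%, a share not counted over all genes. Among them were CALR and CHAC1, which were highest in AEBP1 siRNA 1.

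In 7 members, or 20.6%, the 3 highest libraries were those with the most AEBP1, namely AEBP1 siRNA 3, scrambled 1 and scrambled 2, as in 9.8% of all genes tested. They were HSP90B1, DNAJB9, HYOU1, PDIA4, XBP1, PSAT1 and PHGDH, chosen by these 3 libraries, which is a description of 6 libraries and no test. In HYOU1 this rests on small differences, as its range shows. In ATF3 and PPP1R15A, or 5.88% of the members, the 3 highest were instead AEBP1 siRNA 1 and 2 and scrambled 3. That share was not counted over all genes. In PPP1R15A it rests on a small difference, with scrambled 3 at 1019.7 CPM and scrambled 1 at 1010.2 CPM. With replicate 3 of both groups left out, since their AEBP1 goes against the labels, PSAT1 had a log2 fold change of -0.83 (SE 0.130, edgeR adjusted p = 0.324), and 0 members were called, where the fit called 0.00614% of 16285 genes. With AEBP1 siRNA 1 left out as well, 3 members were called, all lower in AEBP1 siRNA 2 than in scrambled 1 and 2. Those were PSAT1 at -0.88 (SE 0.0909, edgeR adjusted p = 0.00142), XBP1 at -0.61 (SE 0.111, adjusted p = 0.0285) and PHGDH at -0.48 (SE 0.0875, adjusted p = 0.0285). That fit called 0.809% of 17050 genes as lower, and 8.82% of the members. It has a single AEBP1 siRNA library, assumed to vary like the scrambled pair, and the libraries left out were picked with their values known.

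AEBP1 siRNA 1 held an extreme value of most members, high or low in an order that went with transcript length. That library held the highest value of 17 members and the lowest of 7, together 24 of 34 or 70.6%. Of all genes tested, 32.2% were highest there and 32.7% lowest, together 64.9%. The 7 lowest were DNAJC3, CANX, SEL1L, EDEM1, ERN1, EIF2AK3 and SLC7A11, with lengths implied by count and FPKM of 4751 to 10847 bases, and the 17 highest had lengths of 973 to 4189 bases, so these sets did not overlap in length. Relative to the mean of the 6 libraries, SLC7A11, the longest member, was at -0.93 on the log2 scale in AEBP1 siRNA 1 and SEL1L, the next longest, at -0.60. The same held for genes in general: among those with a mean of at least 5 CPM, the median deviation in AEBP1 siRNA 1 was 0.27 for the 2899 shortest and -0.32 for the 2899 longest. The other libraries lay between -0.11 and 0.11 for both sets. Exceptions among the shorter members were PSAT1, DNAJB9 and XBP1, at -0.33, -0.13 and -0.056 in AEBP1 siRNA 1 with lengths of 2427, 3055 and 1886 bases. Among the longer ones, ATF6 was only at -0.10 with 8432 bases and was lowest in AEBP1 siRNA 3. The part of length in the group estimates was not tested. Without AEBP1 siRNA 1, 26 of 34 estimates were closer to 0 and 15 changed sign. These counts were not made over all genes, so they are not shown to be particular to the members.

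**Figure D4:**
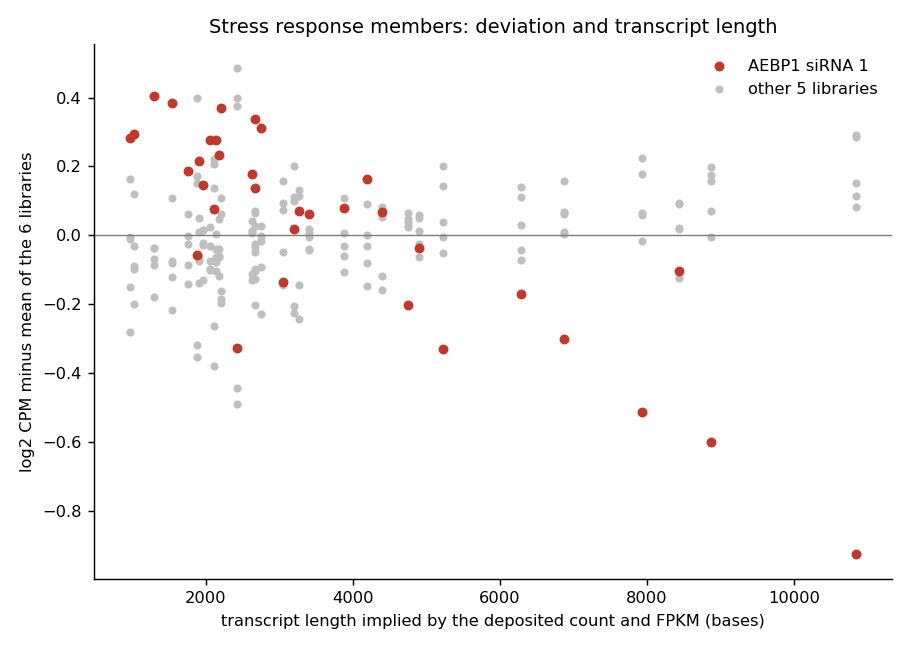
Log2 CPM of each member minus its mean over the 6 libraries, against the transcript length implied by its deposited count and FPKM; red points are AEBP1 siRNA 1 and grey points the other 5 libraries. Red points lie mostly above 0 for short members and below 0 for long ones, down to -0.93 for SLC7A11.

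Summed up by role, the median deviation from the mean of the 6 libraries was -0.13, -0.15 and 0.21 in AEBP1 siRNA 1, 2 and 3, and 0.15, 0.25 and -0.22 in scrambled 1, 2 and 3 for amino acid supply. The scrambled 3 value and those of AEBP1 siRNA 1 and 2 were below 0 and the other 3 above. For the stress transcription factors it was 0.29, -0.088 and -0.10 in AEBP1 siRNA 1, 2 and 3, and -0.031, -0.20 and 0.11 in scrambled 1, 2 and 3, so only AEBP1 siRNA 1 and scrambled 3 were above 0. For the lumenal chaperones it was 0.019, -0.064 and 0.025 in AEBP1 siRNA 1, 2 and 3, and 0.065, 0.047 and -0.14 in scrambled 1, 2 and 3. The roles thus did not share 1 order of libraries, and none separated the labelled groups.

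**Figure D5:**
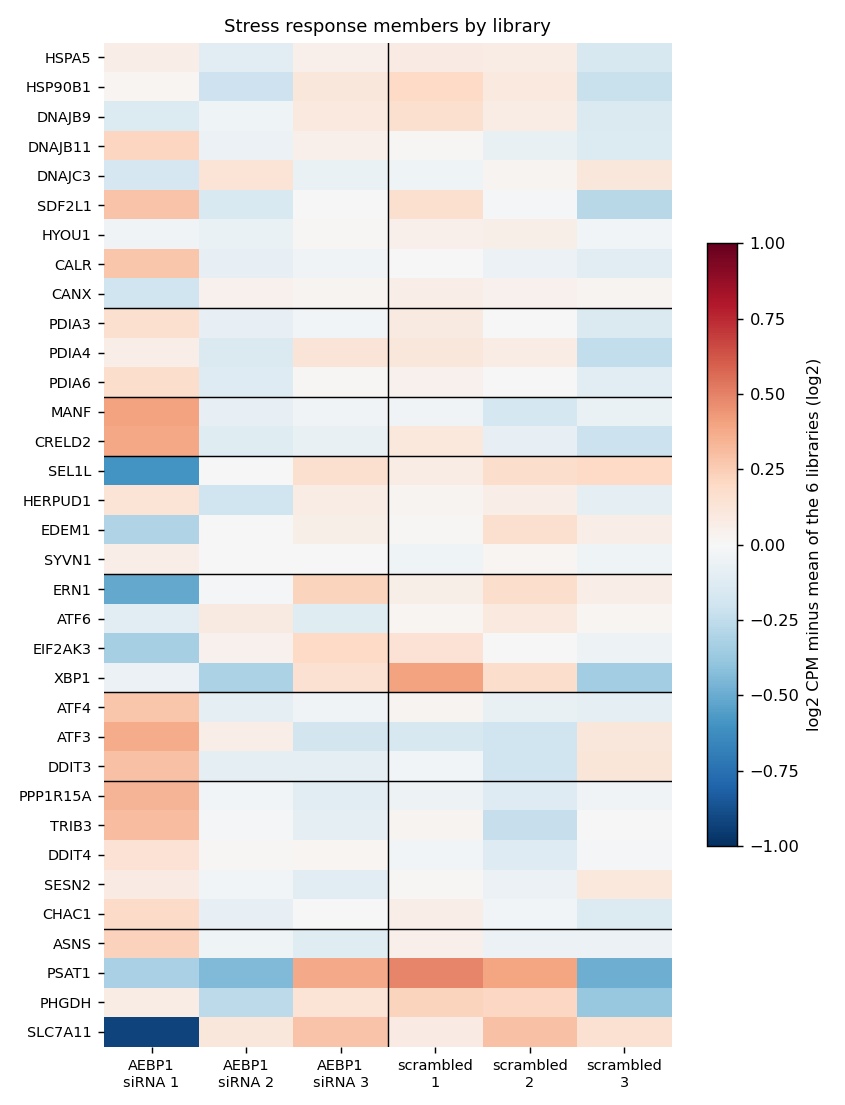
Log2 CPM of each member minus its mean over the 6 libraries (colour), with members in rows by role and libraries in columns, AEBP1 siRNA left of the line. PSAT1 and XBP1 are red in AEBP1 siRNA 3, scrambled 1 and scrambled 2, and the strongest blue is SLC7A11 in AEBP1 siRNA 1, at -0.93.

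A wider set of 102 genes of the same pathways gave 0 called by edgeR among the 100 tested, and 0 with an unadjusted p under 0.05, and 51 had estimates above 0 and 49 below, with a median of 0.0023. Other chaperones and folding enzymes had 14 of 26 above 0, and their smallest unadjusted p values by edgeR were those of UGGT1, the folding sensor of glycoproteins, and SEC61B of the translocation channel, at log2 fold changes of -0.21 and 0.16. Other degradation genes had 13 of 18 above 0, with AUP1 and UFD1 at 0.19 and 0.16. Other sensors, kinases and factors had 12 of 23 above 0. There EIF2AK2, the eIF2alpha kinase PKR that double-stranded RNA activates, had 119, 175 and 196 CPM in AEBP1 siRNA 1, 2 and 3, against 213, 204 and 198 CPM in scrambled 1, 2 and 3. Its groups did not overlap, with AEBP1 siRNA 1 much the lowest and AEBP1 siRNA 3 next to scrambled 3, at a log2 fold change of -0.33 (95% interval -0.72 to 0.073) and an edgeR adjusted p of 0.991. Groups did not overlap in CPM for 3 of the 100 genes tested, or 3.0%, against 5.93% of all genes. The length of EIF2AK2 implied by count and FPKM was 11082 bases, and the part of length in its estimate was not tested. TRAF2, an adaptor of IRE1, was at 0.20. SEC61B, AUP1, UFD1 and TRAF2 had their highest value in AEBP1 siRNA 1, and UGGT1 had its lowest there. AUP1, for example, was at 188 CPM in that library and at 132 to 141 CPM in the others. The part of that library in these estimates was not tested. Other outputs of ATF4 and CHOP had 12 of 33 above 0, with PSPH, the last enzyme of serine synthesis, at -0.16. INHBE, a low-expressed TGF-beta family ligand, was at 1.93, 2.55 and 3.32 CPM in AEBP1 siRNA 1, 2 and 3, against 4.43, 4.21 and 2.21 CPM in scrambled 1, 2 and 3.

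The 3 libraries highest in PSAT1 and PHGDH were also the 3 highest in 10 of these 33 outputs, or 30.3%, and of 3 of the other 67 genes of the wider set. The 10 were the amino acid transporters SLC7A5, SLC7A1 and SLC1A4, the tRNA synthetases AARS1, WARS1, NARS1 and MARS1, the secreted glycoprotein STC2, the death receptor TNFRSF10B, and INHBE. NARS1, which charges tRNA with asparagine, had 413, 407 and 477 CPM in AEBP1 siRNA 1, 2 and 3, against 498, 501 and 406 CPM in scrambled 1, 2 and 3. SLC1A4, a neutral amino acid transporter, had 193, 197 and 224 CPM in AEBP1 siRNA 1, 2 and 3, against 236, 242 and 199 CPM in scrambled 1, 2 and 3. Differences were small in some of them, as in AARS1, between 361 CPM in AEBP1 siRNA 1 and 379.7 CPM in AEBP1 siRNA 3, the extremes of all 6. The order within those 3 and among the other 3 differed between genes. STC2, SLC7A5, SLC7A1, SLC1A4, AARS1, TNFRSF10B and INHBE had their lowest value in AEBP1 siRNA 1, and WARS1, NARS1 and MARS1 in scrambled 3. SLC7A1, with an implied length of 8264 bases, had 492, 682 and 726 CPM in AEBP1 siRNA 1, 2 and 3. In scrambled 1, 2 and 3 it had 700, 755 and 681 CPM. The part of length in these orders was not tested. These 10 were picked by their highest libraries, so the count is a description, set beside 9.8% of all genes.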

How the data were processed

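The authors deposited 1 table with raw counts and FPKM per gene for 6 libraries, per the file headers. They were made on hg19 per the submitters' processing notes. Which aligner, counting program, annotation, strand setting and filters the authors used is not stated in any source used here. Of 24806 lines, 17 held no values and were left out. Counts were filtered with filterByExpr, scaled by trimmed mean of M values and tested in edgeR 4.0.16 (R 4.3.3) by its quasi-likelihood method on the labelled group alone, over all 16250 genes left, and an adjusted p under 0.05 was called. Intervals used the same fit. FPKM was used for levels between genes and, with limma 3.58.1 on log2(FPKM + 1), as an alternative, as was DESeq2 1.42.0. The test was tested on simulated counts, drawn with the spread that edgeR fitted to these libraries. The simulated libraries had no exchanged labels and no length trend, so the simulation cannot show how the test behaves under either.

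Members take between 934 and 49004 counts per library. No library was a copy of another (chi-square per degree of freedom at least 7.78). Of the members, 9 overlap another gene of the table in GENCODE v29 and 6 have named pseudogenes (HSPA5, PDIA3, XBP1, ATF4, ASNS and PSAT1), so their reads may be shared and their levels are uncertain to that extent. Without a stated strand setting, sense and antisense reads cannot be told apart. Promoters were taken from RefSeq tables on GRCh38.p14.

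The members, the lists and the alternatives were chosen with earlier results of these data known. Values per library were given for AEBP1, for the most abundant member of each role, for the 3 smallest p-values, the 2 widest ranges, sensors with XBP1, and members whose groups do not overlap. In the wider lists the 2 genes with the smallest p were named. Any further gene was picked with its values in view. Lists are described by counts and medians, with no set test.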

Additional observations from a re-analysis of the deposited data

How the results depend on the processing

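The count of members called was 0 under 12 of 13 alternatives, and 3 with replicate 3 of both groups and AEBP1 siRNA 1 left out. In that fit the median of the members was -0.0788 against 0.022 with all libraries, and 249 genes were called against 1. The log2 fold change of AEBP1 there was -0.884 against -0.27, which tests nothing, since replicate 3 was left out for its AEBP1 values and a single AEBP1 siRNA library remains. DESeq2 called 6 genes, keeping low counts gave 3, and leaving out single libraries gave 0 to 2. With a replicate block 2 genes were called and 0 members, and it changed no other call among the members. Same-numbered libraries deviated from their group means with correlations of 0.0961, -0.00776 and -0.102, which gives no sign of pairing.

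Of 442 estimates of members under alternatives, 385 kept their sign and their side of the threshold, 3 became stronger and 54 reversed, 33 of these when a single library was left out. Reversals came in 23 members, the cause was not tested, and no reversed value passed the threshold. Leaving out 1 library at a time gave log2 fold changes of -0.073 to 0.059 for HSPA5, -0.17 to 0.035 for HSP90B1, -0.14 to 0.0062 for DNAJB9, -0.15 to 0.0037 for DNAJC3, -0.044 to 0.19 for SDF2L1, -0.0061 to 0.18 for CALR, -0.041 to 0.092 for PDIA3, -0.069 to 0.11 for PDIA4, -0.036 to 0.12 for PDIA6, -0.041 to 0.23 for CRELD2, -0.059 to 0.11 for HERPUD1, -0.35 to 0.0067 for ERN1, -0.16 to 0.092 for EIF2AK3, -0.35 to 0.0038 for XBP1, -0.018 to 0.18 for ATF4, -0.062 to 0.16 for DDIT3, -0.089 to 0.0079 for SESN2, -0.011 to 0.13 for CHAC1, -0.055 to 0.13 for ASNS, -0.22 to 0.065 for PHGDH and -0.49 to 0.025 for SLC7A11. With replicate 3 of both groups left out, the reversed values were HSPA5 -0.10, PDIA3 -0.000815, PDIA4 -0.13, HERPUD1 -0.069, SESN2 0.051. With AEBP1 siRNA 1 left out too, they were HSPA5 -0.19, DNAJB11 -0.029, DNAJC3 0.15, SDF2L1 -0.23, CALR -0.049, PDIA3 -0.13, PDIA4 -0.23, PDIA6 -0.15, CRELD2 -0.14, HERPUD1 -0.25, ATF6 0.032, ATF4 -0.076, CHAC1 -0.10, ASNS -0.034. On the log2(FPKM + 1) scale they were ATF4 -0.018, PHGDH 0.0018. Scaling by DESeq2 size factors, no filter and the replicate block reversed 0 of the members' estimates. With 3 libraries per group, the members' 95% intervals reached to either side of the estimate by 0.192 to 0.667 on the log2 scale, which limits the differences that could be detected.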
